A study of Mus musculus with 705 samples.

Results

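The genes mt-Co2 and mt-Nd4l of the mouse mitochondrial genome and the pseudogenes Gm10175 and Gm13340 of the nuclear genome were examined in gonadal fat, as 4 of the 21613 genes in the count table. They were chosen by their measured values, because their read counts differed greatly between crosses of mice. Levels by cross and by parent order are therefore given as a description with no test, and tests are given only for diet, sex, metformin and the mice within a cross. All 4 genes passed the filter on low counts, which left 20131 genes to test.

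Gonadal fat RNA was sequenced from CC-RIX mice, the recombinant inbred intercross of the Collaborative Cross, in which each mouse is the F1 offspring of a pair of inbred Collaborative Cross strains. There were 20 crosses from 19 strains, with 22 to 38 mice per cross, and crosses are written with the parents in the order of the labels and without the laboratory code, for example CC002xCC043 for CC002/UncJ x CC043/GeniUncJ. Males and females ate either a control diet in which 10% was fat or a diet rich in fat and sugar (HFHS) in which 44% was fat, and some of them were given water with 5 mg/mL metformin, which lowers glucose output of the liver. Of 705 labelled samples, 703 had a column of counts, and the other 2 were not analysed here.

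The untreated groups held 119 control females, 117 control males, 117 HFHS females and 117 HFHS males. The metformin groups held 57 control females, 59 control males, 58 HFHS females and 59 HFHS males. The labels gave no age and did not say which parent was the mother. By the treatment protocol in the labels, metformin was given to some of the mice kept to the older of the study's ages, so metformin and age cannot be told apart. Each mouse of a cross has the same pair of inbred parents, so mice of a cross share their genotype, and each cross is 1 combination of parents.

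Mitochondrial DNA is a small circle that is inherited from the mother and codes for protein subunits of the respiratory chain, for ribosomal RNAs and for transfer RNAs. mt-Co2 codes for a subunit of complex IV, which passes electrons from cytochrome c to oxygen, and mt-Nd4l codes for a small subunit of complex I, which takes electrons from NADH. Pieces of mitochondrial DNA have also been copied into nuclear chromosomes during evolution, and reads from such a nuclear copy and from the mitochondrial gene can be hard to tell apart.

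The sequences of the genes in the reference genome showed which of them could share reads there. The mice carry the genomes of several founder strains, whose sequences were not used here, so matches and shared stretches hold for the reference genome and may differ in the mice. In the annotation GENCODE M21 on the build GRCm38, mt-Co2 lies at chrMT:7013-7696 and mt-Nd4l at chrMT:9877-10173, both on the plus strand and both a single exon, of 684 and 297 bases. Gm13340, at chr2:22588103-22589647 on the minus strand, is annotated as an unprocessed pseudogene and matched mt-Co1 at 97.6% identity over 1545 bases, with 37 differences. Gm10175, at chr7:23946646-23947290 on the minus strand, is annotated as a transcribed processed pseudogene of 645 bases, and its longest match to any mitochondrial transcript was 14 bases. All 645 bases of Gm10175 were found without a mismatch in the transcript of Atp5g2, at chr15:102662864-102672352, a nuclear gene that codes for subunit c of ATP synthase. Neither pseudogene shared a stretch of 100 bases, the read length, with mt-Co2 or mt-Nd4l (0 of 585 and 0 of 198 stretches). So by sequence Gm13340 is a copy of mt-Co1, Gm10175 is a copy of Atp5g2, and neither is a copy of mt-Co2 or mt-Nd4l.

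The nuclear genes in the count table that did match mt-Co2 or mt-Nd4l were 3 others. Gm28661, at chr1:24614885-24615565, was identical to mt-Co2 over 681 bases and held 582 of its 585 stretches of 100 bases. Gm13341, at chr2:22587291-22587962, next to Gm13340, matched mt-Co2 at 95.9% identity over 684 bases, with 16 mismatches and 12 gap bases, and held 88 of the 585 stretches. Gm10222, at chr1:24612407-24612700, was identical to mt-Nd4l over 294 bases and held 195 of the 198 stretches. In all, 29 nuclear genes matched a mitochondrial transcript over at least 100 bases at 80% identity or more, and 9 of them were in the count table, 6 on chromosome 1.

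Stretches of 90 bases of each pair are shown 5′ to 3′ on the strand of the gene, because they show which letters differ between the partners in the reference genome. Capitals mark the bases that differ between the mitochondrial gene and its copy. The stretch of mt-Co2 is chrMT:7457-7546 (its bases 445 to 534), the one of Gm13341 is chr2:22587441-22587530 and the one of Gm28661 is chr1:24615032-24615121. Counted from the first base of mt-Co2, the differences in Gm13341 are T462C, C474T, C477T, A492C, G493A, C501A and C522T. Gm28661 has none here.
mt-Co2: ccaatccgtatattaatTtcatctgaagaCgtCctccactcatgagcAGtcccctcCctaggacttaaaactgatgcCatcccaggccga
Gm13341: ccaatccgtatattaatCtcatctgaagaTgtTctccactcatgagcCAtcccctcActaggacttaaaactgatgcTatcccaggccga
Gm28661: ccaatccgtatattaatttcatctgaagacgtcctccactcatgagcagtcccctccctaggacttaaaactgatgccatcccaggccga

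The first 90 bases of mt-Nd4l (chrMT:9877-9966) and of Gm10222 (chr1:24612611-24612700) were the same in every letter, so by the reference sequence alone a read from within them cannot be placed.
mt-Nd4l: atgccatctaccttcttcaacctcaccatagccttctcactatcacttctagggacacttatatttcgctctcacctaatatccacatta
Gm10222: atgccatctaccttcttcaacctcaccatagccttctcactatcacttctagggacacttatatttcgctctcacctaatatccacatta

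Gm13340 is shown beside mt-Co1 (chrMT:5772-5861 and chr2:22589114-22589203). Counted from the first base of mt-Co1, the differences here are A462G, A468G, T501C, C519T and G534A. Only 80 of the 1446 stretches of 100 bases were the same in both.
mt-Co1: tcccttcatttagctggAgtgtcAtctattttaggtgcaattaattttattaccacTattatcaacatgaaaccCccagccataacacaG
Gm13340: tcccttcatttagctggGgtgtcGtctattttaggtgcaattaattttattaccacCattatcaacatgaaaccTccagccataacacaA

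For Gm10175, bases 151 to 240 (chr7:23947051-23947140) are shown, and the same letters stand in the Atp5g2 transcript, as did all 546 stretches of 100 bases of the pseudogene.
Gm10175: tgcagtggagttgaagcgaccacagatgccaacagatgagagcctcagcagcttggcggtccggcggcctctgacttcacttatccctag

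Total counts per library were 33534601 to 87783043, with a median of 49919023, and the cross medians were 46769263 to 53684763. Levels are given as CPM, counts scaled to the same effective library size in all libraries. The 7 white fat markers, among them Adipoq and Plin1, summed to 16261 to 18527 CPM over the cross medians, and the 5 macrophage markers to 145 to 388 CPM. The 5 brown or beige fat markers, among them Ucp1, summed to 25.5 to 219 CPM in the 5 crosses with the lowest mt-Co2 and to 19.2 to 129 CPM in the others. The 3 ovary and uterus markers in the table summed to at most 2.26 CPM by cross median, and none of the 4 epididymis markers was in the table. The level of Xist alone, with 100 CPM as the limit between the sexes, went against the labelled sex in 11 libraries. Y genes did not enter this call, and 0 libraries labelled female had Y gene counts, those with low Xist included. The expression of 500 nuclear genes placed 4 other libraries in another cross than labelled. Those 4, all untreated HFHS males, were mouse 34 and mouse 35 of CC002xCC075, nearest to CC024xCC002, and mouse 34 and mouse 35 of CC024xCC002, nearest to CC002xCC075 (mouse numbers only name a library). They keep their labels below, and results that rest on the 15 libraries are given with and without them.

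mt-Co2 fell into a low and a high set of crosses. A cross is called low here where its median is under 10% of the highest cross median. In 5 crosses (CC002xCC043, CC002xCC075, CC030xCC002, CC042xCC040 and CC042xCC060; 177 mice) the cross medians of mt-Co2 were 3.80 to 7.68 CPM, and in the other 15 (526 mice) they were 1002 to 1874 CPM. With the 15 libraries against a check left out, the highest mouse of the low set had 62.0 CPM and the lowest of the high set had 493 CPM, so no mouse lay between these values. In bulk tissue fewer cells of a type and less RNA per cell cannot be told apart. The F-test of cross, the contrast by which the members were chosen, called 93.5% of the 20131 genes.

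The lowest, median and highest mt-Co2 level was 1.31, 4.23 and 11.9 CPM in the 35 mice of CC002xCC043. In the 37 mice of CC030xCC002 these were 1.70, 3.80 and 62.0 CPM. In CC042xCC040 they were 2.20, 7.68 and 20.8 CPM (36 mice). The mice of these crosses were all far below any mouse whose cross was high and whose label passed the checks. In CC042xCC060 the levels were 2.83, 6.83 and 24.8 CPM (33 mice). In CC002xCC075 they were 1.88, 4.62 and 1012 CPM (36 mice), and the 2 highest, 850 and 1012 CPM, were the libraries nearest to CC024xCC002. In CC024xCC002 the levels were 3.67, 1182 and 2023 CPM (36 mice), and the 2 lowest, 3.67 and 4.01 CPM, were the libraries nearest to CC002xCC075. Each of the 4 libraries had the level of the cross it was nearest to, not of the cross on its label.

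Among the high crosses, CC075xCC042 had the highest median, with 980, 1874 and 3029 CPM as lowest, median and highest in 37 mice. CC004xCC019 followed with 996, 1780 and 3344 CPM in 33 mice. The lowest medians of the high set were in CC001xCC042 (666, 1002 and 2483 CPM, 36 mice) and CC051xCC059 (493, 1003 and 2238 CPM, 36 mice). The remaining high crosses had medians between these, and their mice overlapped. When the 20 crosses were ordered by mean log2 CPM, 1 of the 19 gaps between neighbours was larger than the SD within the crosses beside it, the gap between the low and the high set (6.62 in all libraries, and 6.77 without the 15 libraries).

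mt-Nd4l was low in 4 of the same 5 crosses, and not in CC030xCC002. Its medians were 16.4 to 19.9 CPM in CC002xCC043, CC002xCC075, CC042xCC040 and CC042xCC060 (140 mice), and 685 to 1061 CPM in the other 16 crosses (563 mice). CC030xCC002 had 482, 958 and 1616 CPM, so this cross was low for mt-Co2 and high for mt-Nd4l in every mouse. In CC002xCC043 the levels were 10.8, 16.4 and 25.7 CPM, and in CC042xCC040 they were 14.1, 19.9 and 31.98 CPM. In CC042xCC060 they were 10.1, 17.9 and 34.03 CPM, and in CC002xCC075 they were 8.60, 17.7 and 832 CPM. The highest values of CC002xCC075, 832 and 744 CPM, and the lowest of CC024xCC002, 10.7 and 11.3 CPM, were again the 4 libraries nearest to another cross. With the libraries against a check left out, the highest mouse of the low set had 34.03 CPM and the lowest of the high set 402 CPM. Here too 1 of 19 gaps between neighbouring crosses was larger than the SD within crosses, in all libraries and without the 15.

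**Figure D1:**
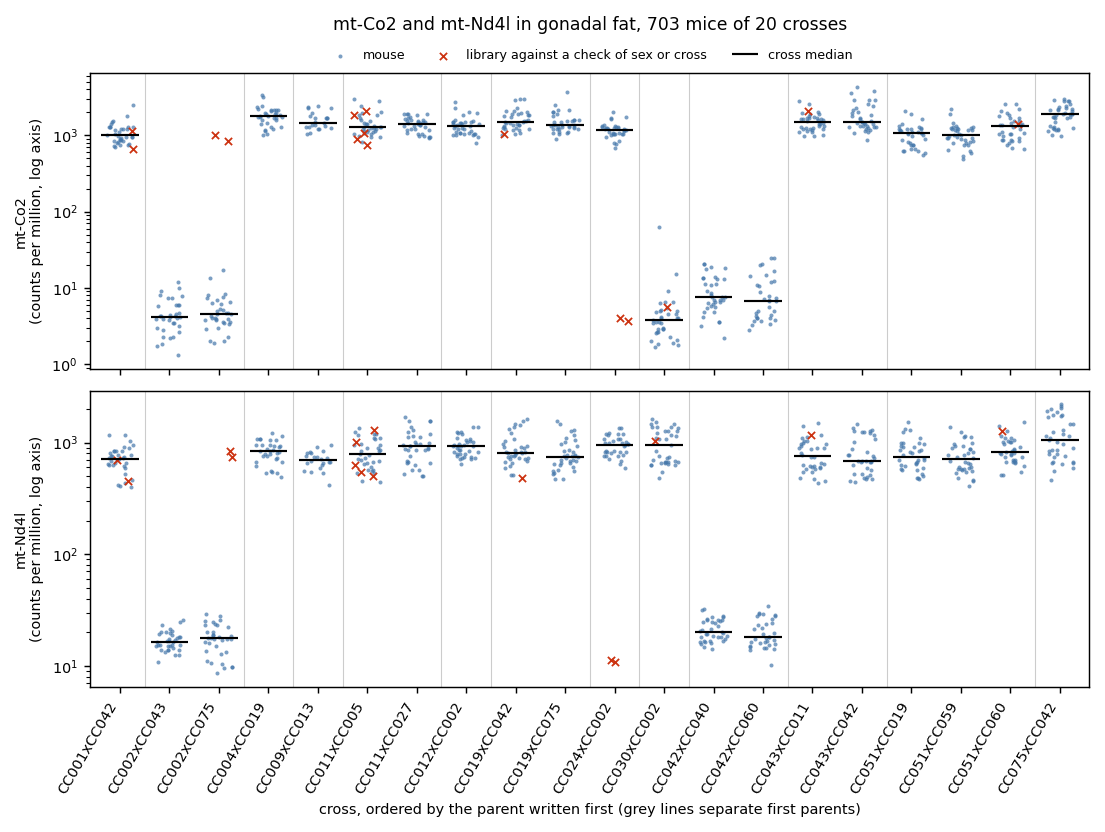
Level of mt-Co2 and mt-Nd4l in each of 703 mice by cross (log axis, CPM), with a bar at the median of each cross and the 15 libraries that went against a check marked. The 5 crosses low for mt-Co2 had medians of 3.80 to 7.68 CPM against 1002 to 1874 CPM, and CC030xCC002 was low for mt-Co2 but not for mt-Nd4l.

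The members differed from most genes in how far the crosses lay apart. The cross means of mt-Co2 spanned 8.89 on the log2 scale, more than in 99.8% of the 20131 genes, and those of mt-Nd4l spanned 6.17 (99.1%), while the median gene spanned 0.79. The other 11 mitochondrial protein genes spanned 0.71 (mt-Nd4) to 1.58 (mt-Co3), with mt-Co1 at 0.80 and mt-Cytb at 0.81. The summed level of the 13 protein genes was 47357 to 64192 CPM over the 5 crosses low for mt-Co2 and 44197 to 72397 CPM over the others. The summed levels of the 2 sets overlapped. The low minus high difference was -7.85 for mt-Co2 and -5.38 for mt-Nd4l in log2 CPM, against SDs within a cross of 0.73 and 0.61.

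The libraries carried sequencing identifiers in 4 ranges, and the labels do not say whether a range was a batch. mt-Co2 medians per cross were 3.92 to 5.60 CPM (low crosses) and 943 to 1852 CPM (others) in the largest range, of 407 libraries. They were 9.85 to 11.2 and 974 to 2831 CPM in the range of 137 libraries, and 2.77 to 7.89 and 1010 to 2592 CPM in the range of 154. The last range held 5 libraries of high crosses alone. So the same split was present within each of the 3 ranges that held crosses of both sets.

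The order of the parents went with the level. CC002 was the parent written first in 2 crosses, both low for mt-Co2 and mt-Nd4l, and CC042 was written first in 2 crosses, also both low for both genes. CC042 was written second in 4 crosses, CC001xCC042, CC019xCC042, CC043xCC042 and CC075xCC042, with mt-Co2 medians of 1002, 1486, 1502 and 1874 CPM. CC002 was written second in CC012xCC002 and CC024xCC002, with mt-Co2 medians of 1319 and 1182 CPM. The third cross with CC002 second was CC030xCC002, where mt-Co2 was low and mt-Nd4l was high. Thus CC002 and CC042 were parents in crosses of both sets, and all 4 crosses with one of them first were low for both genes, against 1 of 7 for mt-Co2 and 0 of 7 for mt-Nd4l with one of them second.

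A pair of crosses was counted as split where 1 of them was low, by the same limit of 10%, and the other was not. For mt-Co2, 0 of 8 pairs that share the first parent were split, 4 of 12 that share the second parent, 15 of 24 that share a parent in opposite places, and 56 of 146 that share none. For mt-Nd4l the counts were 0 of 8, 2 of 12, 17 of 24 and 45 of 146. The median absolute difference between crosses with the same first parent was 0.25 for mt-Co2 and 0.17 for mt-Nd4l on the log2 scale, and 7.35 and 5.30 for crosses that share a parent in opposite places. For Gm13340 these medians were 0.53 and 3.13, and for Gm10175 they were 0.21 and 0.98, so the contrast between first and opposite places was least for Gm10175. Pairs of crosses share crosses, so they are not independent, and no reciprocal pair with the same parents in both orders was among the 20 crosses.

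**Figure D2:**
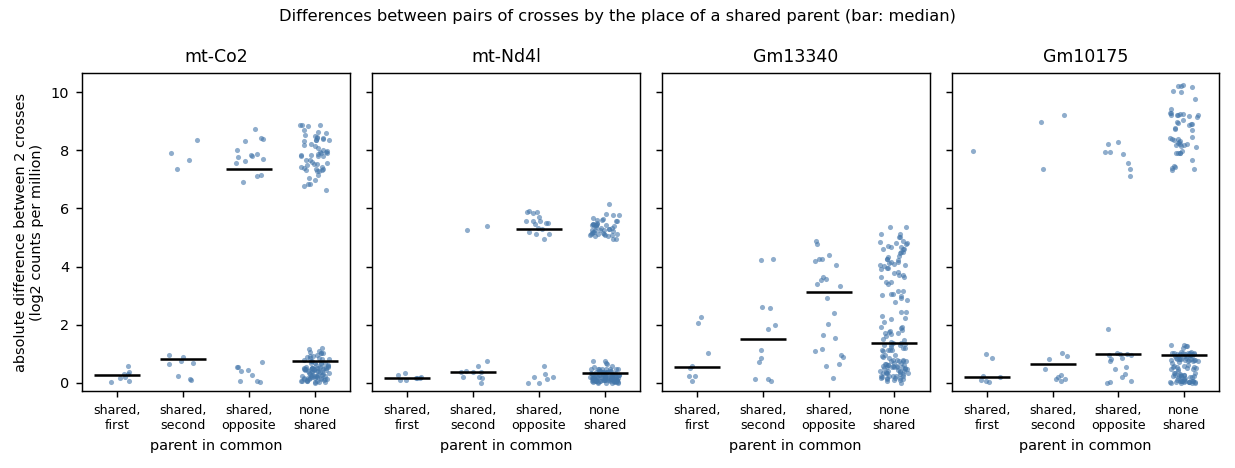
Absolute difference of mean log2 CPM between pairs of crosses (vertical axis) for each member, grouped by whether the pair shares the parent written first, the parent written second, a parent in opposite places or none; points are pairs and bars are medians. The 8 pairs with the same first parent had medians of 0.25 for mt-Co2 and 0.17 for mt-Nd4l, and the 24 pairs in opposite places had 7.35 and 5.30.

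Gm13340, the copy of mt-Co1, was higher where mt-Co2 was low, but at a far lower level. Its medians were 4.85 to 7.44 CPM in the 5 crosses low for mt-Co2 and 0.155 to 0.930 CPM in the other 15. The low minus high difference was 3.93 in log2 CPM, with an SD of 0.98 within a cross. CC030xCC002, with low mt-Co2 and high mt-Nd4l, had the highest median, 7.44 CPM, so Gm13340 followed the set of mt-Co2 rather than that of mt-Nd4l. Of 703 libraries, 16 were more than 4-fold from their cross median, with the larger of both values at 1 CPM or more, among them mouse 4 of CC042xCC040 with 540 CPM and mouse 2 of CC043xCC011 with 153 CPM, both untreated HFHS males. These 2 libraries also had Gm13341 at 69.6 and 26.5 CPM, against cross medians of 0.900 and 0.622 CPM.

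Gm10175 fell into 3 sets of crosses that did not match those of mt-Co2. In CC002xCC043, CC002xCC075, CC030xCC002 and CC043xCC011 its medians were 0.0190 to 0.177 CPM. In 10 crosses they were 31.7 to 42.9 CPM, and in CC019xCC042, CC042xCC040, CC042xCC060, CC051xCC019, CC051xCC059 and CC051xCC060 they were 58.8 to 66.4 CPM. Of the 5 crosses low for mt-Co2, 3 were therefore in the lowest set of Gm10175 and 2 in the highest. CC043xCC011 was in the lowest set with mt-Co2 at a median of 1481 CPM. No strain was a parent in both the lowest and the highest set.

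Atp5g2, which holds the whole sequence of Gm10175, went the other way. Its medians were 65.8 to 67.6 CPM in the 4 crosses with the lowest Gm10175, 19.3 to 37.7 CPM in the middle 10 and 3.17 to 3.80 CPM in the 6 with the highest. The 4 libraries nearest to another cross also had the Gm10175 level of that cross, with 33.98 and 33.4 CPM in the pair labelled CC002xCC075 and 0.0794 and 0.250 CPM in the pair labelled CC024xCC002.

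**Figure D3:**
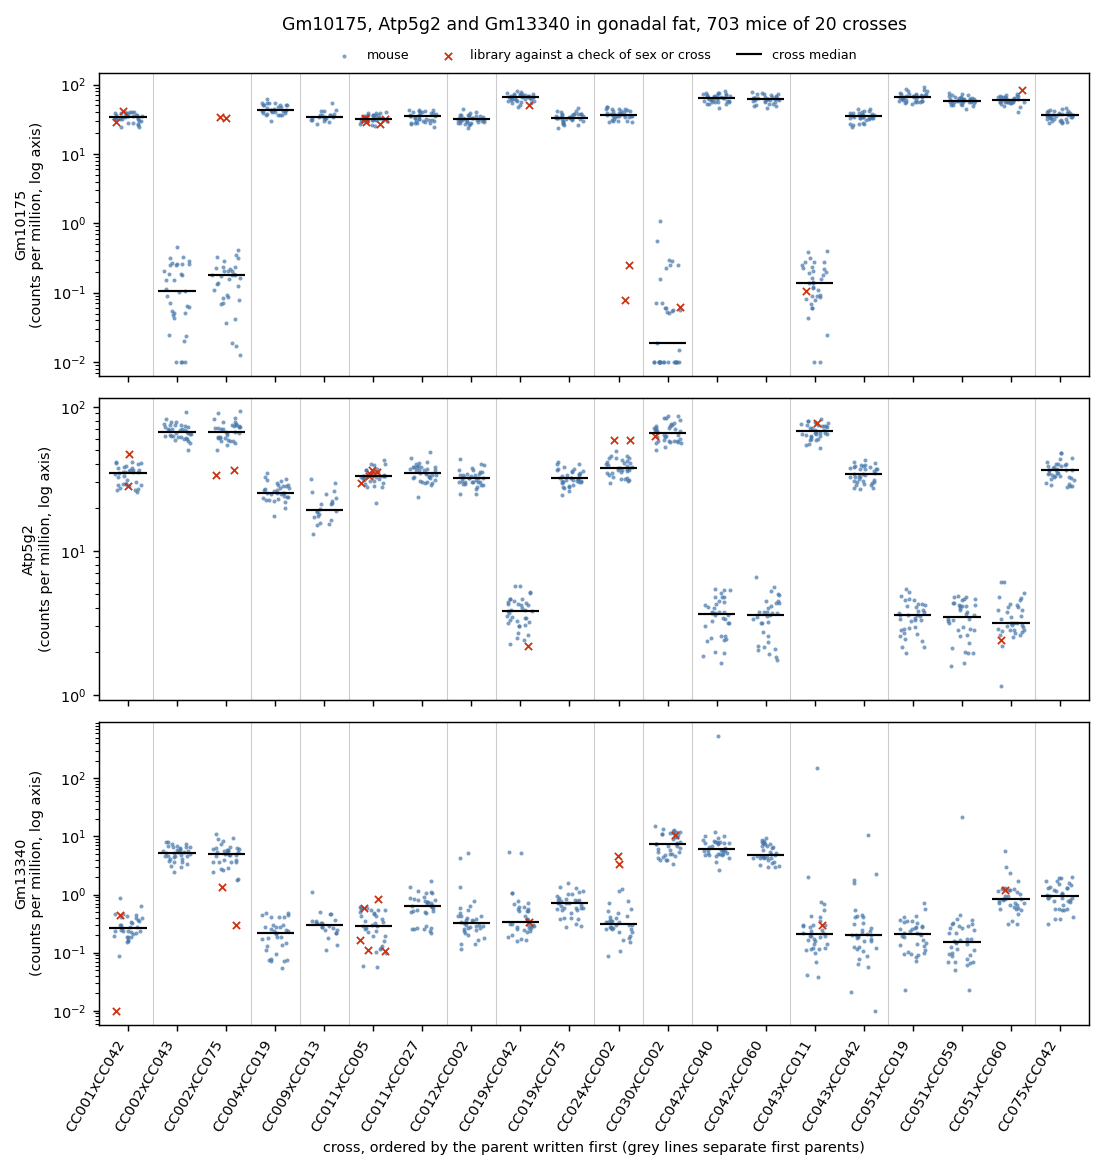
Level of Gm10175, Atp5g2 and Gm13340 in each mouse by cross (log axis, CPM), drawn as for the mitochondrial genes, with values under 0.01 CPM drawn at 0.01. Gm13340 was 4.85 to 7.44 CPM by cross median in the 5 crosses low for mt-Co2, while Gm10175 was under 1 CPM in 3 of these and over 50 CPM in the other 2, with Atp5g2 high where Gm10175 was low.

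Sums of counts over genes show how much of the span between crosses is left when a gene is added to its partner. The sum of mt-Co2 and Gm10175 still spanned 502-fold over the cross medians, and the sum of mt-Nd4l and Gm13340 spanned 49.8-fold. In contrast, mt-Co2, Gm28661 and Gm13341 together had medians of 4170 to 6901 CPM, a 1.66-fold span, and the low minus high difference was 0.07 in log2 CPM with an SD of 0.48 within a cross. mt-Nd4l and Gm10222 together had medians of 964 to 1613 CPM, a 1.67-fold span, with a difference of 0.24 and an SD of 0.42. These sums of genes that share sequence were chosen after seeing the sequence matches.

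By cross median, mt-Co2 was 0.0554% to 0.118% of its sum in the low crosses and 19.4% to 34.3% in the high crosses. Gm28661 had medians of 4191 to 6227 CPM in the low crosses and 2836 to 4782 CPM in the others. Gm13341 had a median of 868 CPM in CC030xCC002, 13.3% of the sum there, and of 0.511 to 0.900 CPM in the other 19 crosses. In CC030xCC002 mouse 21 had 0.541 CPM of Gm13341 and 15.5 CPM of mt-Co2, the only mouse of that cross more than 4-fold below the median of Gm13341. So in the low crosses nearly all counts of the sum stood at Gm28661, and in CC030xCC002 a part stood at Gm13341.

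By cross median, mt-Nd4l was 1.22% to 1.27% of its sum in its 4 low crosses and 59.7% to 72.3% in the other 16. Gm10222 had medians of 1322 to 1595 CPM in the low crosses and 258 to 585 CPM in the others. The sum of Gm10175 and Atp5g2 was 55.0 to 74.7 CPM over the cross medians, a 1.36-fold span, against medians of 0.0190 to 66.4 CPM for Gm10175 alone, the lowest of them with 0 counts in some mice, so that no fold is given. Gm10175 took 0.0268% to 95.1% of that sum by cross median. The sum of mt-Co1 and Gm13340 spanned 1.79-fold, and Gm13340 was at most 0.0302% of it by cross median, since mt-Co1 itself had medians of 16406 to 29306 CPM. In single mice Gm13340 reached 2.49% in CC042xCC040 and 1.24% in CC043xCC011. The counts of each pair were estimated by the authors' model for reads that fit several genes, so these values show where counts were assigned, not which molecule was present.

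**Figure D4:**
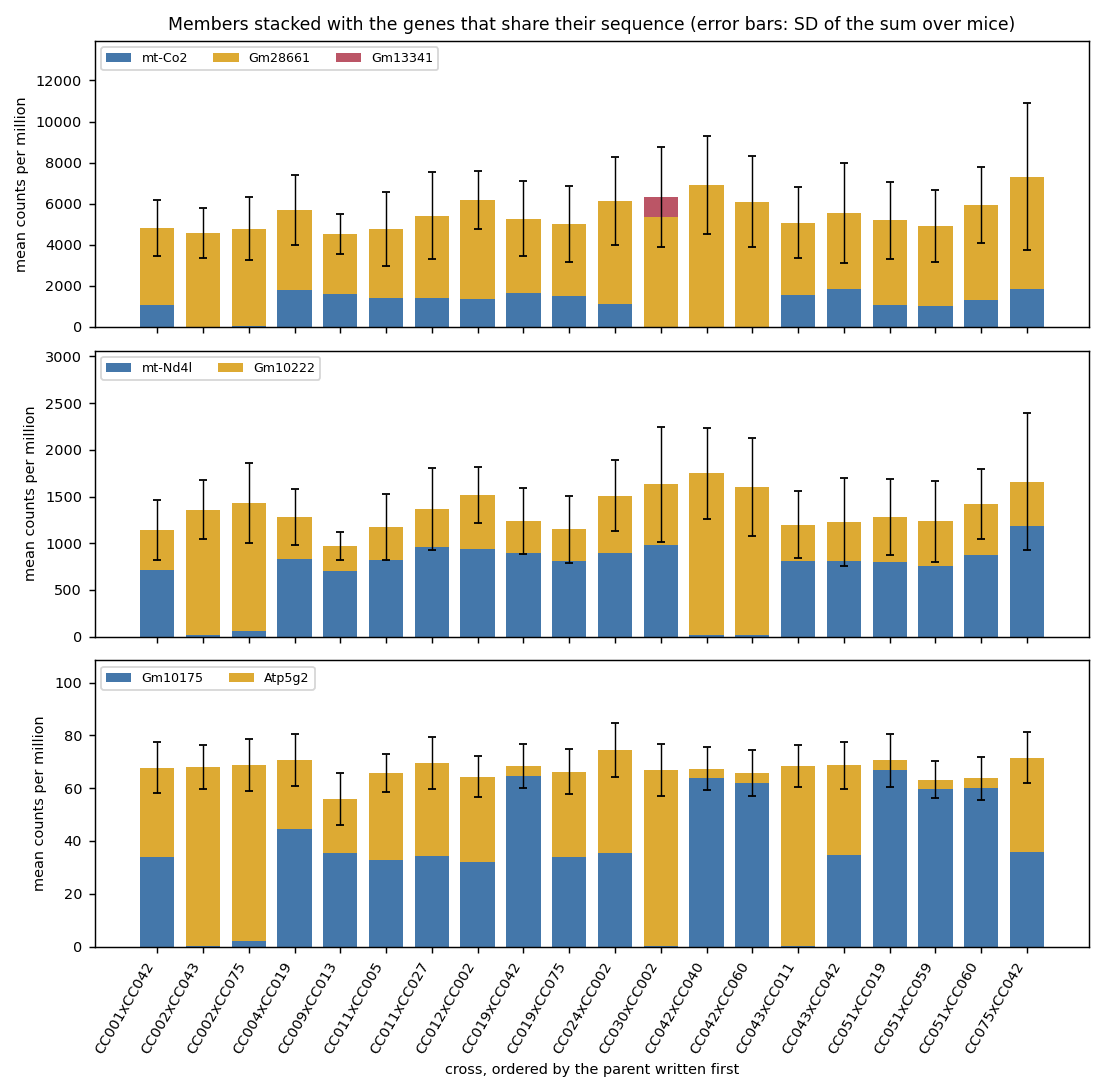
Mean CPM by cross of mt-Co2, mt-Nd4l and Gm10175, each stacked with the genes that share its sequence, with error bars for the SD of the sum over the mice of a cross. The coloured parts change from cross to cross while the height of the stack changes less, with cross medians of the sums that span 1.66-fold, 1.67-fold and 1.36-fold.

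Gm29216, another piece of chromosome 1 (chr1:24615706-24616197) that matches the end of mt-Co1 over 483 bases, was split by crosses as well. Its medians were 65.2 to 185 CPM in 9 crosses with CC001, CC004, CC012, CC024, CC043 or CC051 first, and 0.933 to 2.98 CPM in the 11 with CC002, CC009, CC011, CC019, CC030, CC042 or CC075 first. No first parent was in both sets. Of the 8 pairs with the same first parent 0 were split, and of the 24 in opposite places 16 were.

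Over the 20 cross means, the genes most like mt-Co2 were mt-Nd4l (Pearson's r of 0.83), Rps27rt (0.72) and 5330438D12Rik (0.72), and the most opposite were Gm13340 (-0.92), Gm10222 (-0.86) and Ighv1-26 (-0.74). For mt-Nd4l they were mt-Co2, Pvrl1 (0.75) and Rps27rt (0.65), and Gm10222 (-0.90), Gm13340 (-0.75) and Olfr755-ps1 (-0.71). For Gm13340 they were mt-Atp6 (0.89), Gm10222 (0.83) and mt-Co3 (0.74), and mt-Co2, Rps27rt (-0.77) and mt-Nd4l. For Gm10175 they were Fam186a (0.86), 4921513I03Rik (0.85) and Nudt2 (0.85), and Fut1 (-0.86), AI854703 (-0.82) and Gm43287 (-0.82). These are descriptions over 20 crosses that share parents. Ranks gave weaker values for each pair with mt-Co2 or mt-Nd4l, with a Spearman's rho of -0.48 for mt-Co2 with Gm13340 and of -0.23 for mt-Nd4l with Gm10222. Other pairs were weaker by rank too, among them Gm13340 with Gm10222 (0.59) and Gm10175 with Fut1 (-0.63) and 4921513I03Rik (0.70), while Gm13340 with mt-Atp6 (0.88) and Gm10175 with Nudt2 (0.84) had a rho close to r.

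Diet, sex and metformin were not used to choose the members and were tested in all genes. On the HFHS diet mt-Co2 and mt-Nd4l were lower, Gm10175 was lower once the libraries that went against a check were left out, and Gm13340 gave no stable direction. mt-Co2 was lower on the HFHS diet in 20 of 20 crosses in females and in 17 of 20 in males, with middle cross medians of 1431 CPM (control) and 1177 CPM (HFHS) in females and of 1082 and 939 CPM in males. For mt-Nd4l these were 18 of 20 crosses in each sex, with 1063 and 686 CPM in females and 751 and 602 CPM in males. The groups overlapped, since the crosses differ far more than the diets.

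In the 470 mice without metformin, with cross and sex in the model, the log2 fold change of HFHS against control was -0.35 (SE 0.089) for mt-Co2 and -0.35 (SE 0.069) for mt-Nd4l, with adjusted p of 0.000159 and 1.18e-06 by edgeR's quasi-likelihood test with Benjamini-Hochberg adjustment over 20131 genes. So 2 of the 4 members were called lower, where 33.1% of all genes tested were called lower. Gm10175 gave -0.11 (SE 0.074, adjusted p = 0.183) and Gm13340 gave 0.31 (SE 0.15, adjusted p = 0.0575), neither of them called. With the 15 libraries against a check left out the values were -0.50 for mt-Co2, -0.48 for mt-Nd4l and -0.24 for Gm10175 (adjusted p of 5.70e-26, 5.01e-37 and 3.29e-15 by edgeR). The 4 libraries nearest to another cross were enough to move Gm10175 across the threshold (-0.24, adjusted p = 8.09e-16 by edgeR without them). Without the 2 libraries with over 100 CPM of Gm13340, both HFHS males, its diet value was -0.0017 (adjusted p = 0.990 by edgeR), and by limma-trend, a linear model of log2 CPM, in all of these mice it was -0.22 (adjusted p = 0.0319).

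Within the ranges of 407, 137 and 154 libraries the diet value of mt-Co2 was -0.21, -0.74 and -0.69 and that of mt-Nd4l -0.23, -0.62 and -0.63, all called but mt-Co2 in the first (adjusted p = 0.121 by edgeR), the range that held the 4 libraries nearest to another cross. Gm10175 gave -0.02, -0.26 and -0.28, the last 2 called. Gm13340 gave 0.39, -0.18 and -0.25, none called, so its direction differed between ranges.

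The partners by sequence, except Gm13341, moved with diet as well. Gm28661 fell by 0.57 on the log2 scale, Gm10222 by 0.41, mt-Co1 by 0.46 and Atp5g2 by 0.27, all called, where 33.1% of all genes were called lower. Gm13341 gave -0.09 and was not called (adjusted p = 0.461 by edgeR). The sum of mt-Co2, Gm28661 and Gm13341 fell by 0.54 (SE 0.038), that of mt-Nd4l and Gm10222 by 0.46 (SE 0.035) and that of Gm10175 and Atp5g2 by 0.26 (SE 0.017), with adjusted p of 1.12e-37, 1.17e-32 and 1.11e-43 by edgeR. The planned sums gave -0.31 for mt-Co2 with Gm10175 and -0.29 for mt-Nd4l with Gm13340 (adjusted p of 0.000553 and 0.000200 by edgeR). A sum gives most weight to the gene with most counts, and mt-Co2 was at most 34.3% of its sum by cross median, so that value is largely that of Gm28661. The sum of mt-Co1 and Gm13340 is nearly all mt-Co1, and its values for diet and sex say nothing of Gm13340.

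Other genes of the respiratory chain moved the same way. Of the other 11 mitochondrial protein genes 11 were called lower on the HFHS diet, where 33.1% of all genes tested were. Their median log2 fold change was -0.46, while the median of all genes was 0.01. Examples are mt-Cytb, the mitochondrial subunit of complex III (-0.51), and mt-Atp8 of ATP synthase (-0.55). Of 36 nuclear subunits of complex I 36 were called lower (median -0.31), with Ndufs1 at -0.37 and Ndufb8 at -0.39. Of 14 nuclear subunits of complex IV 12 were called lower and 1, Cox6a2, the heart and muscle form of a subunit, higher at 1.60 (median -0.30). Of 22 genes of mitochondrial DNA expression 21 were called lower (median -0.17), among them Tfam, which packs mitochondrial DNA and starts its transcription (-0.14), and the RNA polymerase Polrmt (-0.18). The 5 macrophage markers were all called higher (median 1.02), where 35.6% of all genes were called higher, with summed cross medians of 115 to 316 CPM on control and 218 to 572 CPM on HFHS. Of the 5 brown or beige fat markers 1, Ucp1, the uncoupling protein of brown fat, was called higher at 1.09 (adjusted p = 6.87e-07 by edgeR) and 2 were called lower (median of the 5, -0.23), with summed cross medians of 23.4 to 205 CPM on control and 13.1 to 253 CPM on HFHS. The part of either in the lower mitochondrial levels was not tested.

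Between the sexes, both mitochondrial members were lower in males, and Gm13340 was called lower close to the threshold. The log2 fold change of males against females was -0.30 (SE 0.089) for mt-Co2, -0.45 (SE 0.069) for mt-Nd4l and -0.32 (SE 0.15) for Gm13340, with adjusted p of 0.00135, 3.65e-10 and 0.0451 by edgeR. These 3 of 4 members stood beside 36.6% of all genes called lower in males. The call of Gm13340 was lost in a fit of all mice, at -0.16 (adjusted p = 0.200 by edgeR), and with the range as a covariate, at -0.31 (adjusted p = 0.0519 by edgeR). Gm10175 gave -0.10 (SE 0.074, adjusted p = 0.243 by edgeR). Without the 15 libraries the values were -0.48, -0.60, -0.43 and -0.24 for mt-Co2, mt-Nd4l, Gm13340 and Gm10175, and all 4 were called. Within the 3 ranges mt-Co2 gave -0.24, -0.40 and -0.35 and mt-Nd4l -0.45, -0.49 and -0.25, while Gm13340 gave -0.45, -0.15 and 0.05. Of these, mt-Co2 was called in the second range, mt-Nd4l in the first and the second, and Gm13340 in the first. Without the 2 libraries of high Gm13340 that gene gave -0.66 (adjusted p = 2.64e-09 by edgeR). The sums gave -0.64 for mt-Co2 with its copies, -0.56 for mt-Nd4l with Gm10222 and -0.22 for Gm10175 with Atp5g2, all called.

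All of the other 11 mitochondrial protein genes were called lower in males (median -0.60), as were 36 of 36 nuclear subunits of complex I (median -0.35), 13 of 14 of complex IV (median -0.43) and 22 of 22 genes of mitochondrial DNA expression (median -0.18). Of all genes tested 36.6% were called lower in males. The 5 brown or beige fat markers were called lower in males too (median -1.65), with Ucp1 at -3.83 and with summed cross medians of 13.1 to 673 CPM in females and 15.5 to 86.7 CPM in males. The 5 macrophage markers were called higher in males (median 0.99), where 36% of all genes were. The part of either in the levels of the members was not tested.

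With metformin no member was called by edgeR, where 19.1% of all genes were. The values were 0.19 (SE 0.076) for mt-Co2, -0.09 (SE 0.055) for mt-Nd4l, -0.12 (SE 0.061) for Gm10175 and -0.19 (SE 0.12) for Gm13340, with adjusted p of 0.0568, 0.264, 0.160 and 0.297 by edgeR. Without the 15 libraries mt-Co2 was called, at 0.29 (adjusted p = 4.52e-08 by edgeR), and its sum with Gm28661 and Gm13341 was called at 0.10 (SE 0.032, adjusted p = 0.0185) in all libraries. By limma-trend in all libraries mt-Co2 was called at 0.21 (adjusted p = 0.00994). Of the other 11 mitochondrial protein genes, mt-Co3 was called higher (0.08) and mt-Nd3 lower (-0.12). Within the ranges of 407, 137 and 154 libraries mt-Co2 gave -0.15, -0.04 and 0.09, and with the range as a covariate 0.01 (adjusted p = 0.982 by edgeR). The 4 libraries nearest to another cross, all untreated and in the range of 407, stayed in these fits. No fit by range was run without them, so whether the value of 0.29 holds within ranges was not tested.

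**Figure D5:**
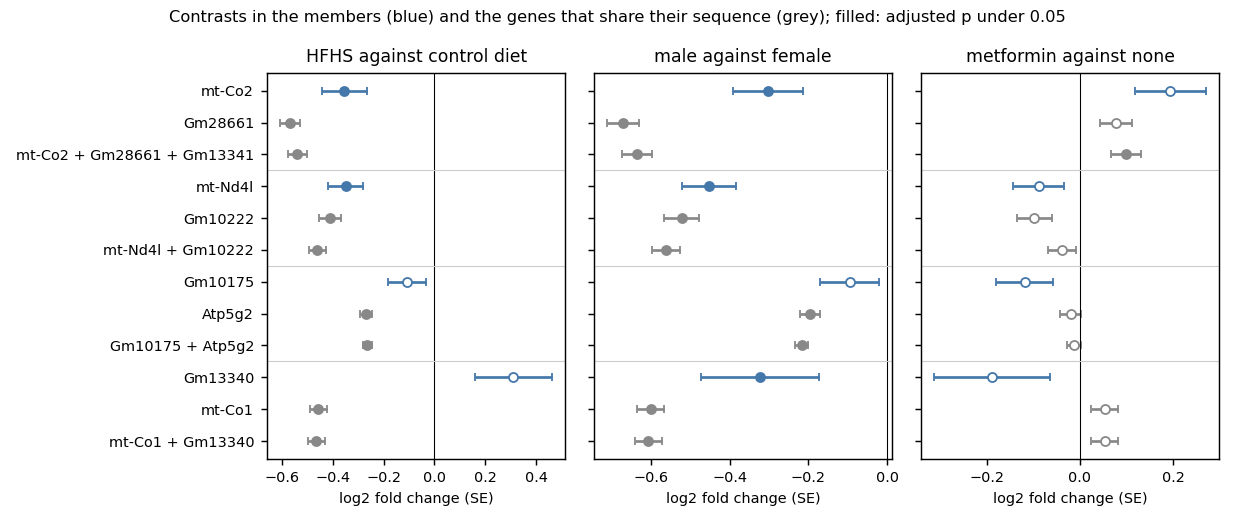
Log2 fold change with its SE for diet, sex and metformin (panels), for each member, the genes that share its sequence and their sums (rows), by edgeR, with filled points where the adjusted p was under 0.05. The diet and sex values of the sums lie below 0 with narrow error bars (for mt-Co2 with its copies -0.54 ± 0.038 and -0.64 ± 0.038, SE), while those of Gm13340 alone are wider (SE 0.15).

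The diet effect differed between the sexes for all 4 members, where 51.5% of all genes were called for this difference. Male minus female, the difference in log2 fold change was 0.59 (SE 0.18) for mt-Co2, 0.61 (SE 0.13) for mt-Nd4l, 0.35 (SE 0.15) for Gm10175 and 1.57 (SE 0.29) for Gm13340, with adjusted p of 0.00228, 2.75e-05, 0.0352 and 5.71e-07 by edgeR. For mt-Co2 and mt-Nd4l, values above 0 mean a smaller fall on the HFHS diet in males. Without the 15 libraries they were 0.29, 0.32, 0.07 and 1.42, and Gm10175 was no longer called (adjusted p = 0.307 by edgeR). By limma-trend the calls of mt-Co2 (0.30, adjusted p = 0.0992) and Gm10175 (0.08, adjusted p = 0.664) were lost. Without these and the 2 libraries of high Gm13340, that gene gave 0.55 (adjusted p = 0.0131 by edgeR). The sums gave 0.36 for mt-Co2 with its copies and 0.34 for mt-Nd4l with Gm10222, both called, and 0.07 for Gm10175 with Atp5g2 (adjusted p = 0.0761 by edgeR). The other 11 mitochondrial protein genes were also called above 0, 11 of 11, with a median of 0.33.

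The test of whether the diet effect differed between crosses called all 4 members, with adjusted p of 2.37e-21 for mt-Co2, 4.86e-17 for mt-Nd4l, 2.00e-23 for Gm10175 and 7.93e-18 for Gm13340 by edgeR, where 25.7% of all genes were called. Without the 4 libraries nearest to another cross, adjusted p was 0.221 for mt-Co2, 0.0105 for mt-Nd4l and 0.244 for Gm10175 by edgeR. So the calls of mt-Co2 and Gm10175 by edgeR rested on 4 libraries. By limma-trend in all libraries the calls of mt-Co2, mt-Nd4l and Gm13340 were lost, with adjusted p of 0.0905, 0.201 and 0.307, and that of Gm10175 was not (adjusted p = 0.0174). Without the 2 libraries of high Gm13340 and those against a check, Gm13340 gave an adjusted p of 3.56e-07 by edgeR. For the sums, the adjusted p was 0.121 for mt-Co2 with its copies, 0.102 for mt-Nd4l with Gm10222 and 0.0360 for Gm10175 with Atp5g2 by edgeR.

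The metformin effect differed between diets for 1 member, Gm13340, at -1.24 (SE 0.24, adjusted p = 0.00620 by edgeR), where 0.392% of all genes were called. Without the 2 libraries of high Gm13340, both HFHS mice without metformin, it was -0.80 (adjusted p = 0.0144 by edgeR), and without these and the libraries against a check -0.69 (adjusted p = 0.0472). By limma-trend in all libraries the difference was -0.35 and not called (adjusted p = 0.288). Gm13341, its neighbour on chromosome 2, gave -0.71 (adjusted p = 0.0309 by edgeR) in all libraries. That fit kept the 2 libraries of high Gm13340, which were also far above their cross medians in Gm13341. mt-Co2, mt-Nd4l and Gm10175 gave -0.16, -0.26 and -0.25, with adjusted p of 0.710, 0.241 and 0.351 by edgeR.

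Within a cross the mice share their genotype, so a relation between a gene and a pseudogene there does not use the contrast between crosses. Pearson's r of log2 CPM was computed in each cross after centring within sex, diet and treatment, for 80 relations tested by 100000 permutations within these strata, two-sided, with Benjamini-Hochberg adjustment. Of 20 crosses, mt-Co2 and Gm10175 were related in 7, with a positive r in 6, from 0.47 in CC075xCC042 to 0.99 in CC024xCC002, and a negative r in 1, CC042xCC040 (-0.41 in 36 mice, Spearman's rho -0.44, permutation adjusted p = 0.0327 and 0.0420; r of -0.39 without the 2 mice farthest from the median). mt-Co2 and Gm13340 were related in 5 crosses, mt-Nd4l and Gm10175 in 10 and mt-Nd4l and Gm13340 in 7, all with a positive r. The r of 0.99 in CC024xCC002 rested on the 2 libraries nearest to CC002xCC075, and with the libraries against a check left out the counts were 5, 3, 9 and 9. When the mitochondrial members were taken relative to the other 11 mitochondrial protein genes, the counts were 1, 1, 0 and 0 in all libraries, and both relations called were negative. They were 1, 1, 0 and 0 without the libraries against a check too, with an r of -0.54 for mt-Co2 with Gm10175 in CC042xCC040 and of -0.49 for mt-Co2 with Gm13340 in CC011xCC005 (permutation adjusted p = 0.0252 for each).

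The partners by sequence were also related within crosses, mostly with a positive r. mt-Co2 and Gm28661 were related in 14 of 20 crosses and mt-Nd4l and Gm10222 in 14, all positive, mt-Co1 and Gm13340 in 9, all positive, and Gm10175 and Atp5g2 in 10, of which 9 were positive. The exception was CC002xCC075 (r of -0.66), whose call was gone with the libraries against a check left out, where 11 crosses were positive and 0 negative. Relative to the other 11 mitochondrial protein genes, mt-Nd4l and Gm10222 were related in 7 crosses, 5 of them negative, and mt-Co2 and Gm28661 in 0. These relations were chosen after seeing the sequence matches.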

How the data were processed

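RNA abundance was measured by poly-A RNA sequencing of gonadal fat from 703 CC-RIX mice. The authors estimated expected counts per gene with EMASE, aligning both reads of a pair as single-ended 100 base reads to a transcriptome of the founder strains, and deposited these expected counts as whole numbers. The authors also deposited log2 scale values, which are those counts after DESeq2's variance-stabilising step. The submitters' notes name the build GRCm38. Reads that fit several genes are divided by a model, so values of near-identical genes depend on it.

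The members and the gene lists were chosen with earlier results of these data known. Named genes were the 4 members, mitochondrial protein and ribosomal RNA genes, nuclear genes matching them, and, per member, the 3 genes most like and the 3 most opposite to it over cross means. Counts were filtered by filterByExpr over sex, diet and treatment, normalised by TMM and tested with edgeR 4.0.16 in R 4.3.3 (quasi-likelihood, two-sided, Benjamini-Hochberg adjustment, threshold 0.05), with cross, sex and diet in the model. CPM used the total counts of a library with no TMM factor, and log2 CPM used TMM and a prior count of 1. On data simulated for the diet comparison over 20131 genes, 100 of 100 genes changed 1.5-fold and 29 of 100 changed 1.1-fold were recovered. Mouse numbers only name libraries, and p-values measure the spread between mice. Alternatives were limma 3.58.1, DESeq2 1.42.0, other scalings, no filter, identifier ranges and fewer libraries. Sequences and positions are from GENCODE M21 (GRCm38).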

Additional observations from a re-analysis of the deposited data

Results flagged for a closer look

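The diet effect on the log2 scale differed between the sexes (male minus female, edgeR's quasi-likelihood test with Benjamini-Hochberg adjustment) by 0.59 for mt-Co2 (adjusted p = 0.00228), 0.61 for mt-Nd4l (adjusted p = 2.75e-05), 0.35 for Gm10175 (adjusted p = 0.0352) and 1.57 for Gm13340 (adjusted p = 5.71e-07). Without the 15 libraries against a check the differences were 0.29, 0.32, 0.07 and 1.42, and without these and the 2 libraries of high Gm13340 that of Gm13340 was 0.55 (adjusted p = 0.0131 by edgeR). Gm10175 lost this call without the 4 libraries nearest to another cross (0.086, adjusted p = 0.186 by edgeR), and by limma-trend mt-Co2 (0.30, adjusted p = 0.0992) and Gm10175 (0.085, adjusted p = 0.664) lost it.

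The diet effect differed between crosses by the F-test of the interaction, with adjusted p of 2.37e-21 for mt-Co2, 4.86e-17 for mt-Nd4l, 2.00e-23 for Gm10175 and 7.93e-18 for Gm13340 by edgeR. Without the 4 libraries these were 0.221, 0.0105, 0.244 and 2.60e-18, and by limma-trend in all libraries 0.0905, 0.201, 0.0174 and 0.307.

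The metformin effect differed between diets for Gm13340, by -1.24 (adjusted p = 0.00620 by edgeR). Without the 2 libraries with over 100 CPM of Gm13340 the difference was -0.80 (adjusted p = 0.0144 by edgeR), and by limma-trend it was -0.35 and not called (adjusted p = 0.288).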

How the results depend on the processing

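No paired analysis was possible because the labels number every sample alike, so replicate numbers pair nothing, and with at least 57 mice a group, leaving out 1 mouse at a time was not run. Leaving out libraries by the Gm13340 level or by the cross check alone, and the sums of genes that share sequence, were alternatives chosen after seeing the data. Of 412 alternative values, 323 were counted as kept. These kept their direction and their side of the threshold, or moved by less than the spread between replicates. A number of genes or crosses called was instead counted as kept where it stayed within a set fold of the main number. Depth limits Gm13340 and Gm13341 in most crosses and Gm10175 in 4, where the levels were under 1 CPM. The causes of the changes below were not tested, except that a single range holds fewer mice.

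Within the ranges of 137 and 154 libraries, diet called 8267 and 6975 genes and sex 7855 and 7360, against 13834 and 14596 in all. Metformin called 2241 genes with the range as a covariate and 556, 20 and 144 in the 3 ranges, against 3849. Metformin by diet called 22 genes by limma-trend, 51 without the libraries against a check and 42 without these and those of high Gm13340, against 79.

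For diet, mt-Co2 was -0.21 in the largest range. Gm10175 was called at -0.14 in all mice, -0.19 by limma on deposited values and by limma-trend, -0.26 and -0.28 in the smaller ranges, -0.24 without the libraries against the cross check or any check, and -0.23 without these and those of high Gm13340. Gm13340 was called at 0.33 with the range as a covariate. It reversed to -0.043 by limma on deposited values, -0.22 by limma-trend (called), -0.18 and -0.25 in the smaller ranges, -0.0017 without the 2 libraries of high Gm13340 and -0.077 without these and those against a check.

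For sex, mt-Co2 was -0.24 and -0.35 in the ranges of 407 and 154 libraries and mt-Nd4l -0.25 in the latter, not called. Gm10175 was called at -0.18 by limma on deposited values, -0.23 by limma-trend, -0.16 and -0.23 in the smaller ranges, -0.23 without the cross check libraries, -0.24 without those against any check and -0.23 without these and those of high Gm13340. Gm13340 was not called at -0.16 in all mice, -0.31 with the range as a covariate and -0.15 in the range of 137, and reversed to 0.054 in that of 154.

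For metformin, mt-Co2 was called at 0.20 by limma on deposited values, 0.21 by limma-trend, and 0.29 without the libraries against a check, with or without those of high Gm13340, and reversed to -0.15 and -0.042 in the ranges of 407 and 137. mt-Nd4l reversed to 0.019 in the range of 154, and to 0.0030 and 0.0043 without the libraries against a check and without these and those of high Gm13340. Gm10175 reversed to 0.047 and 0.018 in the smaller ranges. Gm13340 reversed to 0.0066 and 0.052 by limma on deposited values and limma-trend, and to 0.042 and 0.11 without the libraries of high Gm13340 and without these and those against a check. The sum of mt-Co2 and Gm10175 was called at 0.23 without the libraries against a check, and the sum with Gm28661 and Gm13341 in its place at 0.10.

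For diet by sex, limma-trend gave 0.30 for mt-Co2 and 0.085 for Gm10175, not called, and Gm10175 was not called at 0.086 without the cross check libraries, 0.069 without those against any check and 0.056 without these and those of high Gm13340. For diet by cross, limma-trend gave adjusted p of 0.0905, 0.201 and 0.307 for mt-Co2, mt-Nd4l and Gm13340. Without the cross check libraries, those against any check, and these and those of high Gm13340, the adjusted p of mt-Co2 was 0.221, 0.247 and 0.235 and that of Gm10175 0.244, 0.288 and 0.304. For metformin by diet, mt-Co2 reversed to 0.079 and 0.080 in the fits without the libraries against a check and without these and those of high Gm13340, and Gm13340 was -0.35 by limma-trend, not called.

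Relative to the other 11 mitochondrial genes, within-cross relations were called in 1 cross for mt-Co2 with Gm10175 and 1 with Gm13340, and in 0 for mt-Nd4l with either, in all libraries and, chosen after seeing the data, without those against a check. Without the libraries against a check mt-Co2 and Gm13340 were related in 3. On the deposited values, which compress low levels, the low minus high difference was -2.09 for Gm10175 and 1.74 for Gm13340, and the median difference of Gm13340 between crosses with a parent in opposite places was 1.43.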
